A study of Mus musculus with 86 samples.

Results

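Cytochrome P450 families 2 and 3 were followed through liver, kidney and lung of mice with and without fibrotic injury. The set was taken from a list of 41 symbols of these families, matched by symbol in the FPKM tables and by Ensembl identifier in the count files. Cyp2c44 is the older symbol of Cyp2c23 and carries the same identifier, so the list names 40 genes, out of 31053 genes in the count files and 38277 in the FPKM tables. The members comprise 4 genes of subfamily 2a, 4 of 2b, 12 of 2c, 5 of 2d, Cyp2f2 and Cyp2g1, 3 of 2j, Cyp2r1, Cyp2s1 and Cyp2u1, and 7 of 3a. Most sit in clusters: 12 on chromosome 7, 12 on chromosome 19, 7 on chromosome 5, 5 on chromosome 15, 3 on chromosome 4 and Cyp2u1 alone on chromosome 3.

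Enzymes of these families are haem-containing monooxygenases of the endoplasmic reticulum that take electrons from the reductase encoded by Por and insert oxygen into drugs, steroids, bile acids, vitamin D and fatty acids. In liver they are concentrated in hepatocytes, most of them around the central vein, with Cyp2f2 a known mark of the periportal side. Nuclear receptors such as the products of Nr1i2 and Nr1i3 induce many of them, liver factors such as HNF4A maintain them, and growth hormone makes several mouse members male- or female-predominant. In kidney the 2j and 2c members act in the proximal tubule on arachidonic acid, and in lung Cyp2f2 is a product of club cells.

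The series holds 2 experiments. Both concern MERTK, a kinase receptor that phagocytes use to clear dead cells. In the knockout experiment, livers came from wild-type (WT) and Mertk knockout (KO) mice after bile duct ligation (BDL), which blocks the outflow of bile, or sham operation. Kidneys came from WT and KO mice after unilateral ureteral obstruction (UUO) or sham operation. Each of these 8 groups has 4 libraries. In the inhibitor experiment, mice received the MERTK inhibitor UNC569 or its solvent DMSO. Livers were taken after sham operation (3 libraries with DMSO and 3 with UNC569) or BDL (6 with DMSO and 4 with UNC569, of 6 samples listed). Kidneys were taken after sham (3 and 3) or UUO (4 with DMSO and 7 with UNC569, of 8 samples listed). Lungs came from sham mice (3 and 3) or mice given bleomycin (6 and 6), a drug that scars the lung. The labels give no strain, age, promoter, days of injury or dose. Nothing says which animals shared a day or cage, so p-values measure only the spread between these libraries. Numbers after the group names follow the labels in the knockout experiment and the order of the table's columns in the inhibitor experiment, where they only name libraries.

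The 16 liver count libraries held 14.5 to 23.35 M reads in genes and the 16 kidney ones 7.22 to 28.45 M. The depth behind the FPKM values is unknown. CPM values are counts scaled to the library total after that total is adjusted by the TMM factor, edgeR's scaling factor of each library. Mertk, counted over the whole gene, was not lower in sham KO liver (10.8 to 20.5 CPM) than in sham WT liver (10.5 to 18.1 CPM). KO and WT kidneys overlapped in Mertk, so KO below means the libraries labelled knockout. After BDL Mertk was 6.95 to 18.8 CPM in KO and 21.3 to 28.4 CPM in WT livers. All 16 livers carried Y-linked Ddx3y (62.5 to 105.8 CPM) and at most 0.645 CPM of Xist. Several libraries stand apart. Sham WT 1 and UUO WT 1 of the kidney were left out of all kidney values below, except where stated. Kidney sham WT 3 had 7.22 M reads in genes and 58.49% unmapped reads. Kidney UUO KO 4 had 32.02% unmapped reads, and the median of the 16 kidneys was 7.27%. BDL KO 3 and BDL KO 1 were among the lowest pair of the 4 BDL KO livers for 33 and 28 of the 34 members tested. BDL KO 4 was the highest of that group for 21, and BDL WT 3 the lowest of its group for 19. The labels note bad sequence files for sham WT 3, sham WT 4, BDL KO 1 and BDL KO 3 among the livers. Summed levels of 16 hepatocyte markers were 116855 to 136255 CPM in sham WT, 63439 to 127841 CPM in BDL WT and 142480.0 to 255851 CPM in BDL KO livers. Those of 10 cholangiocyte markers were 39.6 to 77.8, 855 to 2292 and 56.7 to 437 CPM. All 10 cholangiocyte and all 10 macrophage markers rose after BDL in WT livers.

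Part of each cluster is so alike that short reads cannot always be assigned, and the sequences below are shown because they bound what a value of one gene can mean. Cyp2a4 (chr7:26307169-26315088, plus strand) and Cyp2a5 (chr7:26835305-26843548, plus strand, both GRCm38) share 98.4% of their coding bases and Cyp3a41a and Cyp3a44 95.8%. Of all runs of 100 bases (the read length) in a member's transcript, 90.8% occur in another gene for Cyp3a41a, 44.1% for Cyp2c40, 36.3% for Cyp2c69, 23.7% for Cyp2c67, 19.8% for Cyp2c68, 14.8% for Cyp2d10, 14.4% for Cyp2a5 and 11.2% for Cyp2a4, and at most 9.4% for any other member (5.4% for Cyp3a44 and 0.1% for Cyp3a16). None do so for Cyp2c29, Cyp2d40, Cyp2f2, Cyp2j5, Cyp2s1, Cyp2u1 and Cyp3a13. The 100 coding bases that end at base 700, from the GENCODE transcripts of GRCm38, are printed 5′ to 3′ for both sets of neighbours. Capitals mark the bases that differ from the first gene of each set (5 in Cyp2a4 against Cyp2a5; 11 in Cyp3a16, 8 in Cyp3a41a and 5 in Cyp3a44 against Cyp3a11).
Cyp2a5: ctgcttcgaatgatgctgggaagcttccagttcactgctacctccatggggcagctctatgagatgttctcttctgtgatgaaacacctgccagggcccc
Cyp2a4: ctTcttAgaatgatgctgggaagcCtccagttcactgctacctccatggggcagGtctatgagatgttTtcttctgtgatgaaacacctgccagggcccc
Cyp3a11: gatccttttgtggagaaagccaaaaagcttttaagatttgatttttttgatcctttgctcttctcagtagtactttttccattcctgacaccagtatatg
Cyp3a16: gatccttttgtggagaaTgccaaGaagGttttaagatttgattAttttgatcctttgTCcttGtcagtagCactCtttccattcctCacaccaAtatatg
Cyp3a41a: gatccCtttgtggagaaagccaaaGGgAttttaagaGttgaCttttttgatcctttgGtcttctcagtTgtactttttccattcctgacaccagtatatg
Cyp3a44: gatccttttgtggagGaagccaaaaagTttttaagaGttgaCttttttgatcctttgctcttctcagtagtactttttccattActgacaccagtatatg
Cyp3a16 had 0 counts in all 16 liver count libraries. The limit a count of 0 allows, 3 counts, corresponds to 0.128 to 0.207 CPM on library totals without the TMM factor. The printed CPM include that factor, so this limit is on another scale than they are. In the 16 livers of the inhibitor experiment Cyp3a16 was at 3.52 to 14.8 FPKM. Cyp3a44 was likewise at or under 0.240 CPM in the count libraries, with 11.2 ± 1.48 FPKM (SD, n = 3) in the sham DMSO livers. The shared runs make values of Cyp2a4, Cyp2a5, Cyp2d10, Cyp3a41a and the quartet Cyp2c40, Cyp2c67, Cyp2c68 and Cyp2c69 uncertain as values of single genes. Liver values of Cyp3a16, Cyp3a44, Cyp2d12 and Cyp2a4 are uncertain because the 2 experiments differ. Cyp2d12 was at or under 0.413 CPM in the count livers, with 5.46 to 20.2 FPKM in the sham DMSO livers. Cyp2a4 was at 0.727 ± 0.852 CPM (SD, n = 4) in sham WT and 6.91 ± 4.49 FPKM (SD, n = 3) in sham DMSO livers. What part the annotation or the assignment of reads has in these differences was not tested.

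Upstream sequence was compared because members of one cluster moved differently after BDL. RefSeq windows from 250 bases before to 50 after the gene start (GRCm38.p6) were found for 34 members. The run CAAAGTCCA, known as a binding motif of HNF4A, was searched on both strands and lay upstream of 7 of these 34 members, read from 1 window each; of the table's 32851 windows, 156 held it (0.47%). TATAAA on the sense strand lay in the windows of 14 of the 34 members (8.32% of all windows). In Cyp2c40 and Cyp2c69 it lay 40 and 10 bases after the gene start. AGGTCA on either strand, the core bound by many nuclear receptors, lay in the windows of 14 members (16.26% of all windows). In Cyp2a4, Cyp2a5 and Cyp2d40 it lay 30, 29 and 32 bases after the gene start. TTCNNNGAA on either strand, the motif of STAT5, lay in the windows of 0 members (8.3%). Cyp2c39 and Cyp3a25 have 2 windows each in the table, of which the first was read, so the members' counts are per gene and the percentages per window. The first window of Cyp2c39 (chr19:39347096-39347395) lies away from its GENCODE start at base 39510862, which the second covers. The first holds AGGTCA, and the second holds TATAAA and no AGGTCA. Cyp2c39 is therefore counted with AGGTCA and not with TATAAA, which the window at its GENCODE start would reverse. The clustered genes are copies, so the 7 matches are not independent. The windows below run 5′ to 3′ on the minus strand of GRCm38.p6 with the match in capitals. They are shown for the 4 Cyp2c and 3 Cyp3a members that hold it and for Cyp3a44, whose capitals mark the aligned run, which carries C7A counted from the first base of the motif.
Cyp2c40, chr19:39812839-39812871: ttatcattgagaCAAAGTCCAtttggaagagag
Cyp2c67, chr19:39649147-39649179: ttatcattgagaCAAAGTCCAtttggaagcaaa
Cyp2c68, chr19:39741158-39741190: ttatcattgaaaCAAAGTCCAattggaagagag
Cyp2c69, chr19:39886824-39886856: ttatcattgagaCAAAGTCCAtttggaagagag
Cyp3a11, chr5:145879943-145879975: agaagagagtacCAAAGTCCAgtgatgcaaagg
Cyp3a16, chr5:145469802-145469834: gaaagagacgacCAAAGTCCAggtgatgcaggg
Cyp3a41a, chr5:145720211-145720243: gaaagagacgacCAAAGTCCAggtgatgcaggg
Cyp3a44, chr5:145805949-145805981: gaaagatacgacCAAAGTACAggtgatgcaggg
The printed stretches of Cyp2c40 and Cyp2c69 are identical, as are those of Cyp3a16 and Cyp3a41a. A match describes these letters and says nothing of a factor's binding.

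In uninjured tissue the liver carried most members. In sham livers given DMSO, 34 of the 40 genes averaged at least 1 FPKM, 26 at least 10 and 14 at least 100, against 15, 7 and 2 in kidney and 10, 5 and 3 in lung. Cyp3a11, the main drug- and steroid-oxidising enzyme of its subfamily and a target of Nr1i2, led in liver with 2183 ± 832 FPKM (SD, n = 3), ahead of Cyp2c29 (732 ± 190.1), an arachidonic acid epoxygenase, Cyp2c50 (406 ± 179.8), also an epoxygenase, Cyp2f2 (403 ± 118) and Cyp2j5 (285 ± 53.8). The spreads of Cyp2f2, Cyp2c50 and Cyp2j5 overlap, as do those of the members ranked after them: Cyp2d10 at 255 ± 30.1, Cyp3a25 at 252 ± 34.8 and Cyp2d26 at 241 ± 0.881 FPKM. In kidney Cyp2j5, an epoxygenase of the proximal tubule, led with 413 ± 67.3 FPKM, followed by Cyp2a4, a testosterone hydroxylase, with 216 ± 49.5. In lung Cyp2f2, which activates naphthalene in club cells, led with 1968 ± 1007 FPKM, then Cyp2a5 with 141 ± 121 and Cyp2s1, an enzyme of epithelia, with 133 ± 62.2. The 5 leading members held 65.8% of the summed FPKM of all members in liver, 92% in kidney and 99.2% in lung. The 3 tissues come from separate tables, so levels are set side by side without a test.

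**Figure D1:**
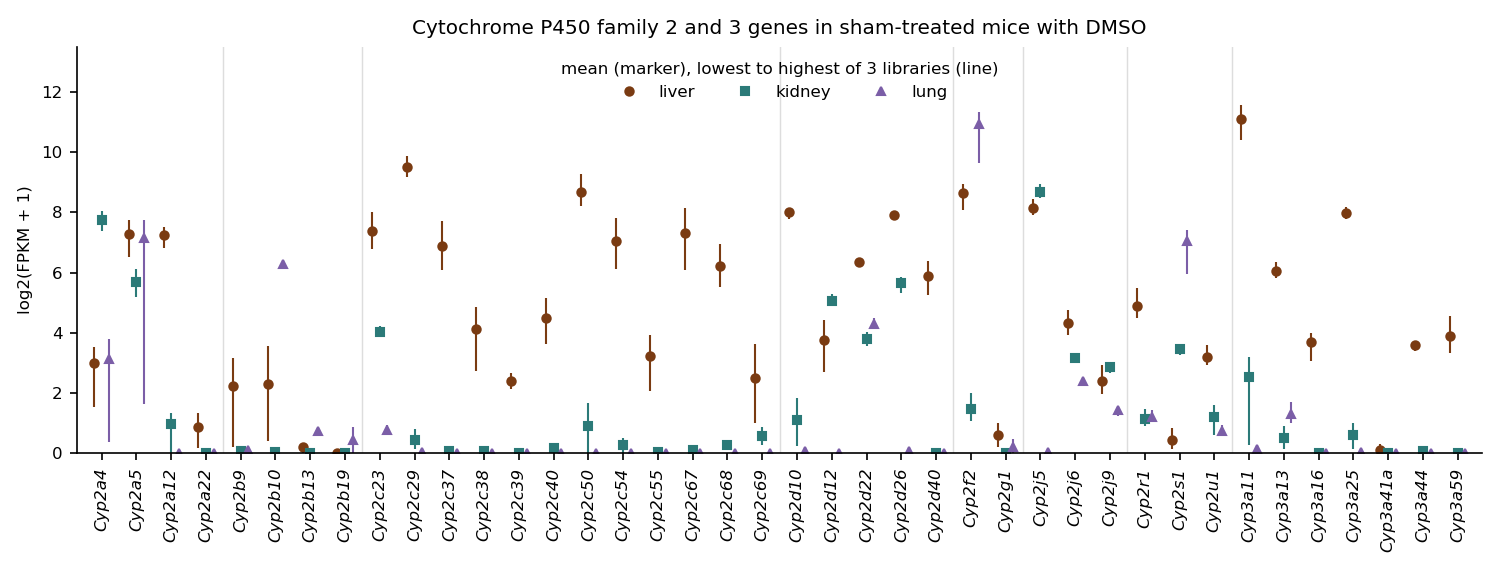
Levels of P450 family 2 and 3 genes in sham mice given DMSO, by tissue, as log2(FPKM + 1); markers are the mean of the 3 libraries of each tissue and lines run from the lowest to the highest. Liver holds 34 of 40 genes at 1 FPKM or more, kidney 15 and lung 10.

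Bile duct ligation lowered a group of Cyp2c, Cyp2d, Cyp2f and Cyp2u genes in WT liver and left Cyp3a11 within its sham range. Of 34 members tested, 10 fell and 3 rose (edgeR, adjusted p under 0.05). These are 29.4% and 8.82% of those tested, against 12.8% and 16.3% of all 13492 genes tested. The median log2 change was -0.63 over the members and 0.03 over all genes. Cyp2d40, Cyp2f2, Cyp2c29, Cyp2u1, Cyp2c67, Cyp2c37, Cyp2c54, Cyp2d10, Cyp2c40 and Cyp2c69 fell; Cyp3a13, Cyp2c39 and Cyp2s1 rose. In whole tissue, fewer cells of a type and less RNA per cell cannot be told apart. The 6 members not tested had at most 0.413 CPM in any liver: Cyp2b13, Cyp2b19, Cyp2d12, Cyp3a16, Cyp3a41a and Cyp3a44.

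Within subfamily 2c, whose liver members mostly act as epoxygenases and hydroxylases of fatty acids and drugs, 6 of 12 tested genes fell. Cyp2c29 (chr19:39269405-39330713, plus strand, GRCm38) was at 689, 898, 1109 and 938 CPM in the sham WT livers and at 128, 145, 134 and 134 CPM after BDL. Every ligated liver lay far below every sham liver (log2 fold change -2.75 ± 0.45, edgeR adjusted p = 0.000539, 6.71-fold lower). Here and below, ± after a log2 change or difference is the standard error (SE). Cyp2c67 fell from 357, 317, 305 and 338 to 34.7, 57.4, 139 and 78.4 CPM (log2 fold change -2.09 ± 0.49, edgeR adjusted p = 0.00518), and its near copy Cyp2c40 from 8.41, 24.3, 7.71 and 30.1 to 0.370, 0.655, 0.882 and 0.967 CPM (log2 fold change -4.59 ± 0.82, edgeR adjusted p = 0.00101). In both, the groups did not overlap. Cyp2c69 went from 1.76, 6.74, 1.44 and 11.2 to 0.308, 0.492, 0.210 and 0.129 CPM, again without overlap. Cyp2c68, whose printed upstream stretch differs from theirs at few bases, was at 242, 229, 192 and 299 CPM in sham and 223, 246, 88.8 and 187 CPM in ligated livers, which overlap (log2 fold change -0.37 ± 0.37, edgeR adjusted p = 0.478). Cyp2c37 fell by 1.93 and Cyp2c54 by 2.04 on the log2 scale, both epoxygenases, with adjusted p of 0.00477 and 0.00586 in edgeR.

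Other 2c genes behaved differently. Cyp2c39, known to hydroxylate retinoic acid, rose from 1.06, 2.31, 1.38 and 0.521 to 5.48, 7.32, 1.34 and 5.29 CPM (log2 fold change 1.87 ± 0.58, edgeR adjusted p = 0.0240). BDL WT 3 lay within the sham range. That call was lost when sham WT 1, sham WT 3, sham WT 4 or BDL WT 2 was left out (adjusted p 0.0644, 0.0548, 0.0740 and 0.0708). Cyp2c23, an epoxygenase shared with kidney, was at 446, 317, 351 and 499.7 CPM in sham and 174, 221, 152 and 217 CPM in ligated livers. The groups did not overlap, yet the test was not passed (log2 fold change -1.078 ± 0.48, edgeR adjusted p = 0.105; 0.00313 with the sham WT and BDL WT libraries alone). Cyp2c38, Cyp2c50 and Cyp2c55 did not pass either. Summed over the subfamily, 2c transcripts were 2729.6, 2783, 2994 and 3244 CPM in sham and 1242, 1297, 704 and 1069 CPM in ligated livers (log2 fold change -1.45 ± 0.40, edgeR adjusted p = 0.0132).

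In subfamily 2d, the mouse relatives of human CYP2D6, Cyp2d40 had the smallest p of all members. It was at 71.1, 128, 109.9 and 88.2 CPM in sham WT livers and at 7.45, 7.16, 14.6 and 8.19 CPM after BDL (log2 fold change -3.40 ± 0.31, edgeR adjusted p = 1.16e-05, 10.6-fold lower), with the 2 groups far apart and BDL WT 3 the highest ligated liver. Cyp2d10 fell from 1024, 900.03, 1007 and 1019 to 578, 511, 334 and 502 CPM (log2 fold change -1.04 ± 0.20, edgeR adjusted p = 0.00149), without overlap. Cyp2d22 and Cyp2d26 had log2 changes of -0.68 ± 0.27 and -0.62 ± 0.29 that did not pass. Cyp2f2 was at 998, 831, 957 and 884 CPM in sham and 221, 118, 115 and 216 CPM in ligated livers (log2 fold change -2.46 ± 0.36, edgeR adjusted p = 0.000231). All 4 ligated livers lay below all 4 sham livers. Cyp2u1, a fatty acid hydroxylase, went from 67.9, 32.5, 67.9 and 48.9 to 4.00, 9.18, 12.6 and 3.55 CPM (log2 fold change -2.88 ± 0.52, edgeR adjusted p = 0.00113), also without overlap.

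Calls were few in the remaining subfamilies. Cyp2r1, a vitamin D 25-hydroxylase, was at 15.3, 14.8, 15.3 and 16.9 CPM in sham and 16.4, 22.9, 12.8 and 13.6 CPM in ligated livers, which overlap (log2 fold change 0.08 ± 0.36, edgeR adjusted p = 0.888). Cyp2s1 rose from 0.647, 0.193, 0.344 and 0.326 to 4.37, 2.24, 0.714 and 2.45 CPM (log2 fold change 2.65 ± 0.85, edgeR adjusted p = 0.0281). The call was lost without sham WT 2, sham WT 3, sham WT 4 or BDL WT 1 (adjusted p 0.0740, 0.0691, 0.0727 and 0.0729). Cyp2s1 and Cyp2c39 were also no longer called without the libraries with bad sequence files (adjusted p 0.0992 and 0.0894). Cyp2j5 was at 522, 545, 571 and 570.02 CPM in sham and 162, 217, 382 and 295 CPM in ligated livers, without overlap, and the test was not passed (log2 fold change -1.06 ± 0.45, edgeR adjusted p = 0.0845). It passed with the sham WT and BDL WT libraries alone (adjusted p 0.00882) and when BDL KO 3, BDL KO 4 or the libraries with bad files were left out of the shared fit (adjusted p 0.0289, 0.0377 and 0.0215). Cyp2a5, which hydroxylates coumarin and nicotine, was at 517, 206, 288 and 701 CPM in sham and 889, 921, 108 and 708 CPM in ligated livers, BDL WT 3 being the low one (log2 fold change 0.62 ± 0.70, edgeR adjusted p = 0.531). Cyp2b10, the classic target of Nr1i3, was at 1.18, 1.28, 0.413 and 0.456 CPM in sham livers and at 0.185, 0.328, 0.378 and 9.42 CPM after BDL; 3 ligated livers lay below all sham livers and BDL WT 4 above them (log2 fold change 1.60 ± 1.076, edgeR adjusted p = 0.274).

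Among the 3a genes, Cyp3a11 (chr5:145854426-145879964, minus strand) was at 2971, 4105, 5541 and 2353 CPM in sham WT and 2646, 4143, 4661 and 5438 CPM in ligated WT livers. The ranges overlap almost wholly (log2 fold change 0.17 ± 0.54, edgeR adjusted p = 0.830, 95% interval -0.88 to 1.23). Cyp3a13 (chr5:137892932-137921619, minus strand), best known from intestine, rose from 146, 199, 142 and 153 to 546, 609, 171 and 561 CPM (log2 fold change 1.56 ± 0.43, edgeR adjusted p = 0.0138), BDL WT 3 alone lying in the sham range. Cyp3a25 and Cyp3a59 had log2 changes of -0.38 ± 0.41 and -0.35 ± 0.50 that did not pass. The 11 calls on genes other than Cyp2c39 and Cyp2s1 held in each of 16 omissions of a library and in every alternative setting.

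**Figure D2:**
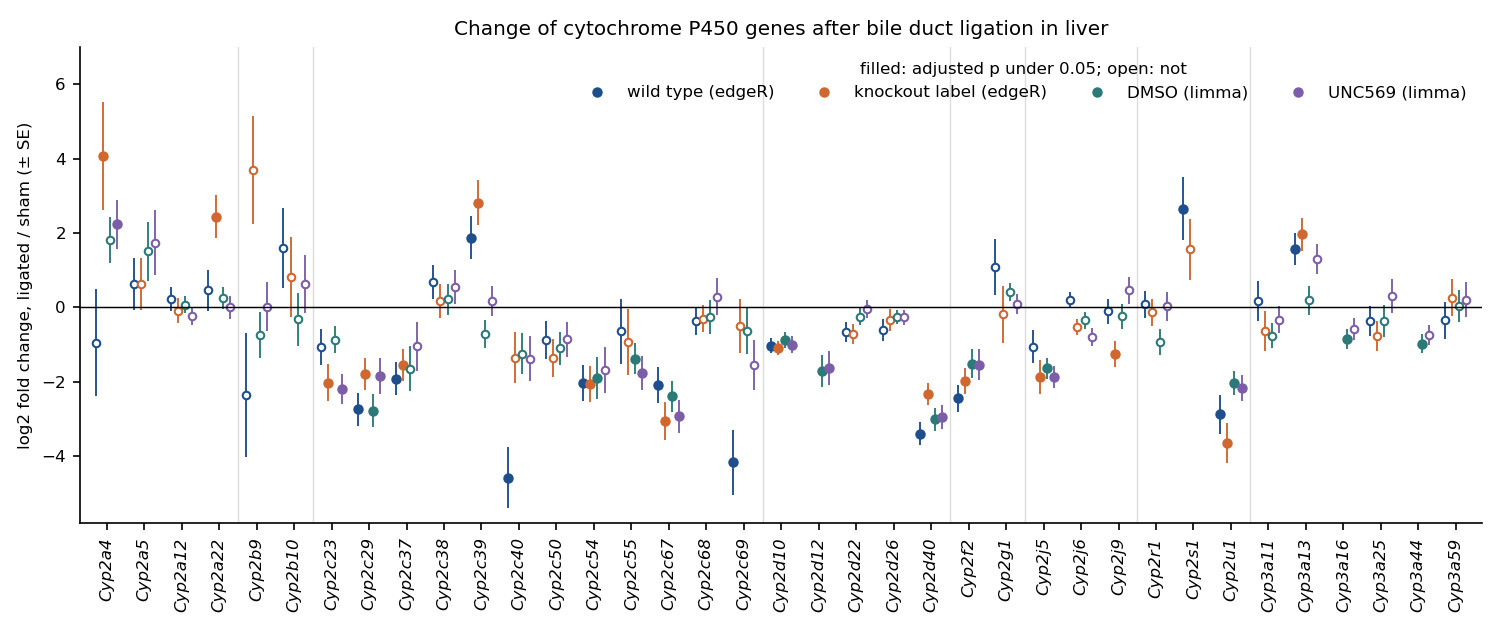
Log2 fold change after bile duct ligation (BDL against sham) of each tested P450 family 2 and 3 gene in the 4 liver arms (WT, KO, DMSO, UNC569), with bars of ± 1 SE; filled points have an adjusted p under 0.05 and open ones do not. Cyp2d40, Cyp2c29, Cyp2c67, Cyp2u1, Cyp2f2 and Cyp2d10 are filled and below 0 in all 4 arms.

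In KO livers, 11 of 34 tested members fell and 4 rose after BDL (edgeR), 32.4% and 11.8%, against 11.2% and 14.0% of all genes. The medians were -0.59 for the members and 0.07 for all genes. Cyp2c29, Cyp2c37, Cyp2c54, Cyp2c67, Cyp2d10, Cyp2d40, Cyp2f2 and Cyp2u1 fell as they did in WT, and Cyp2c23, Cyp2j5 and Cyp2j9 fell here as well. Cyp2d40 was at 81.6, 109.5, 94.2 and 79.1 CPM in sham KO and 16.0, 12.3, 14.3 and 29.7 CPM in BDL KO livers (log2 fold change -2.33 ± 0.30, edgeR adjusted p = 0.000154). Cyp2c67 went from 365, 297, 328 and 233 to 16.6, 39.6, 12.4 and 77.5 CPM (log2 fold change -3.06 ± 0.51, edgeR adjusted p = 0.000952). In both genes all ligated livers lay below all sham livers. Cyp2f2 fell from 1051, 807, 926 and 859 to 149.98, 275, 103 and 389.9 CPM and Cyp2u1 from 69.8, 85.7, 58.3 and 50.7 to 6.65, 6.43, 0.639 and 7.08 CPM, with adjusted p of 0.00140 and 0.000456 in edgeR.

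Several KO values rest on BDL KO 1 and BDL KO 3. Cyp2c23 was at 496, 385, 359.8 and 506 CPM in sham and 22.4, 185, 38.4 and 182 CPM in BDL KO livers 1 to 4. Libraries 1 and 3 lay several-fold under 2 and 4 (log2 fold change -2.03 ± 0.50, edgeR adjusted p = 0.00947; -1.24 and 0.00327 without them). Cyp2j5 showed the same split, 60.5, 193, 41.7 and 294 CPM against 547, 529, 558 and 528 CPM in sham (log2 fold change -1.88 ± 0.46, edgeR adjusted p = 0.00914; -1.15 and 0.0136 without them). Cyp3a13 rose, with 1064, 464, 409 and 180.2 CPM in BDL KO, library 1 being the high one, against 133, 138, 118 and 154 CPM in sham livers (log2 fold change 1.961 ± 0.44, edgeR adjusted p = 0.00568; 1.25 and 0.0462 without them). Cyp2c29 was at 92.1, 179.7, 97.4 and 536 CPM after BDL, BDL KO 4 being the high one, and 881, 650.5, 713 and 919 CPM in sham (log2 fold change -1.80 ± 0.43, edgeR adjusted p = 0.00813; -1.14 and 0.0342 without them). Without these 2 libraries and the 2 sham WT libraries with bad files, 7 members fell. Cyp2c29, Cyp2c37, Cyp2c54 and Cyp2j9 were lost (adjusted p 0.0518, 0.209, 0.0579 and 0.124), as was the rise of Cyp3a13 (0.0750). With the sham KO and BDL KO libraries fitted alone, the calls on Cyp2c23, Cyp2j5, Cyp2c29, Cyp2j9 and Cyp2a22 were lost (adjusted p 0.0626, 0.0538, 0.0590, 0.0521 and 0.0507). Cyp2c37 was also lost without sham KO 1 or BDL KO 3 (0.0563 and 0.0505) and Cyp2j9 without sham KO 4 (0.0526). Of the 15 calls, 6 held in every omission and setting: Cyp2c39, Cyp2c67, Cyp2d10, Cyp2d40, Cyp2f2 and Cyp2u1. Summed macrophage markers were highest in BDL KO 3, at 4819 CPM. What part such differences between livers have in these values was not tested.

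Cyp2b9 and Cyp2a4, known as female-predominant liver enzymes, were at or under 1 CPM in the BDL KO livers except BDL KO 4. The list of female-predominant members also holds Cyp2b13, Cyp2c39, Cyp2c40, Cyp2c69, Cyp3a16, Cyp3a41a and Cyp3a44, which did not move together. After BDL, Cyp2c40 and Cyp2c69 fell in WT, Cyp3a16 and Cyp3a44 fell with DMSO, and Cyp2c39 rose in WT and KO. Cyp2b9 was at 0.370, 0.979, 0.240 and 39.97 CPM in BDL KO livers 1 to 4 and 0, 0.328, 0 and 0.451 CPM in BDL WT livers. Cyp2a4 was at 0, 0.979, 0.3996 and 26.4 CPM in the same BDL KO livers against 0.131, 0.667, 0.257 and 0.567 CPM in sham KO livers, and its call (log2 fold change 4.07 ± 1.45, edgeR adjusted p = 0.0497) ended without BDL KO 4 (log2 0.16, adjusted p 0.926) and in 12 of 16 omissions in all. Cyp2a22 rose from 0.917, 0.303, 0.193 and 1.51 to 2.09, 3.79, 1.76 and 8.17 CPM (log2 fold change 2.43 ± 0.58, edgeR adjusted p = 0.00823; 0.0507 with the 2 groups alone) and Cyp2c39 from 0.983, 0.607, 1.35 and 0.567 to 4.50, 8.02, 1.84 and 10.2 CPM (log2 fold change 2.81 ± 0.60, edgeR adjusted p = 0.00460), both without overlap. Cyp3a41a and Cyp3a44 stayed at or under 0.240 CPM in all 16 livers.

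Set directly against each other, ligated KO and WT livers differed in 2 members: Cyp2c69 was higher and Cyp2j6 lower in KO (edgeR), 2.94% each of those tested, against 2.67% and 1.72% of all genes. Cyp2j6, a relative of Cyp2j5 found in many tissues, was at 48.3, 76.8, 36.6 and 63.7 CPM in BDL KO and 87.9, 87.9, 87.7 and 128 CPM in BDL WT livers, which do not overlap (log2 fold change -0.79 ± 0.21, edgeR adjusted p = 0.0471). It was lost in 13 of 16 omissions of a library, and its log2 difference was -0.46 (adjusted p 0.241) without BDL KO 1 and BDL KO 3. Cyp2c69 was at 2.96, 0.184, 3.52 and 3.94 CPM in BDL KO, where library 2 lay within the WT range, and 0.308, 0.492, 0.210 and 0.129 CPM in BDL WT livers (log2 fold change 3.18 ± 0.86, edgeR adjusted p = 0.0479). It was lost in 14 of 16 omissions. Cyp2c40, its near copy, had 4.37, 0.306, 3.596 and 11.3 CPM in BDL KO livers against 0.370, 0.655, 0.882 and 0.967 CPM in BDL WT livers (log2 fold change 2.75 ± 0.79, edgeR adjusted p = 0.0551). Cyp2b9, carried by BDL KO 4, had a log2 difference of 5.77 ± 1.70 with an adjusted p of 0.0573 in edgeR.

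The response to ligation was not shown to differ between genotypes for any member. The difference of the 2 responses passed for 0 of 34 members, 8 of which had an unadjusted p under 0.05, and for 0 of 13492 genes (0% higher and 0% lower), 1952 of which did. The smallest adjusted p was that of Cyp2c69 (difference of log2 changes 3.66 ± 1.12, edgeR adjusted p = 0.240). Cyp2c40, Cyp2b9 and Cyp2d40 followed with differences of 3.24 ± 1.03, 6.05 ± 2.20 and 1.07 ± 0.41. For Cyp3a11 the difference was -0.81 ± 0.76, with a 95% interval of -2.31 to 0.68: the BDL KO livers held 448, 4402, 959.8 and 2941 CPM, low in libraries 1 and 3, and the sham KO livers 4261, 2643, 1957 and 4782 CPM. In sham livers, 0 of 34 members differed between KO and WT (0% of all genes in either direction), with 0 members and 70 genes at an unadjusted p under 0.05. These comparisons share the BDL and sham libraries with those above. With DESeq2, the ligated KO and WT livers differed in 3 members higher and 1 lower, and with the replicate number as a block in none.

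**Figure D3:**
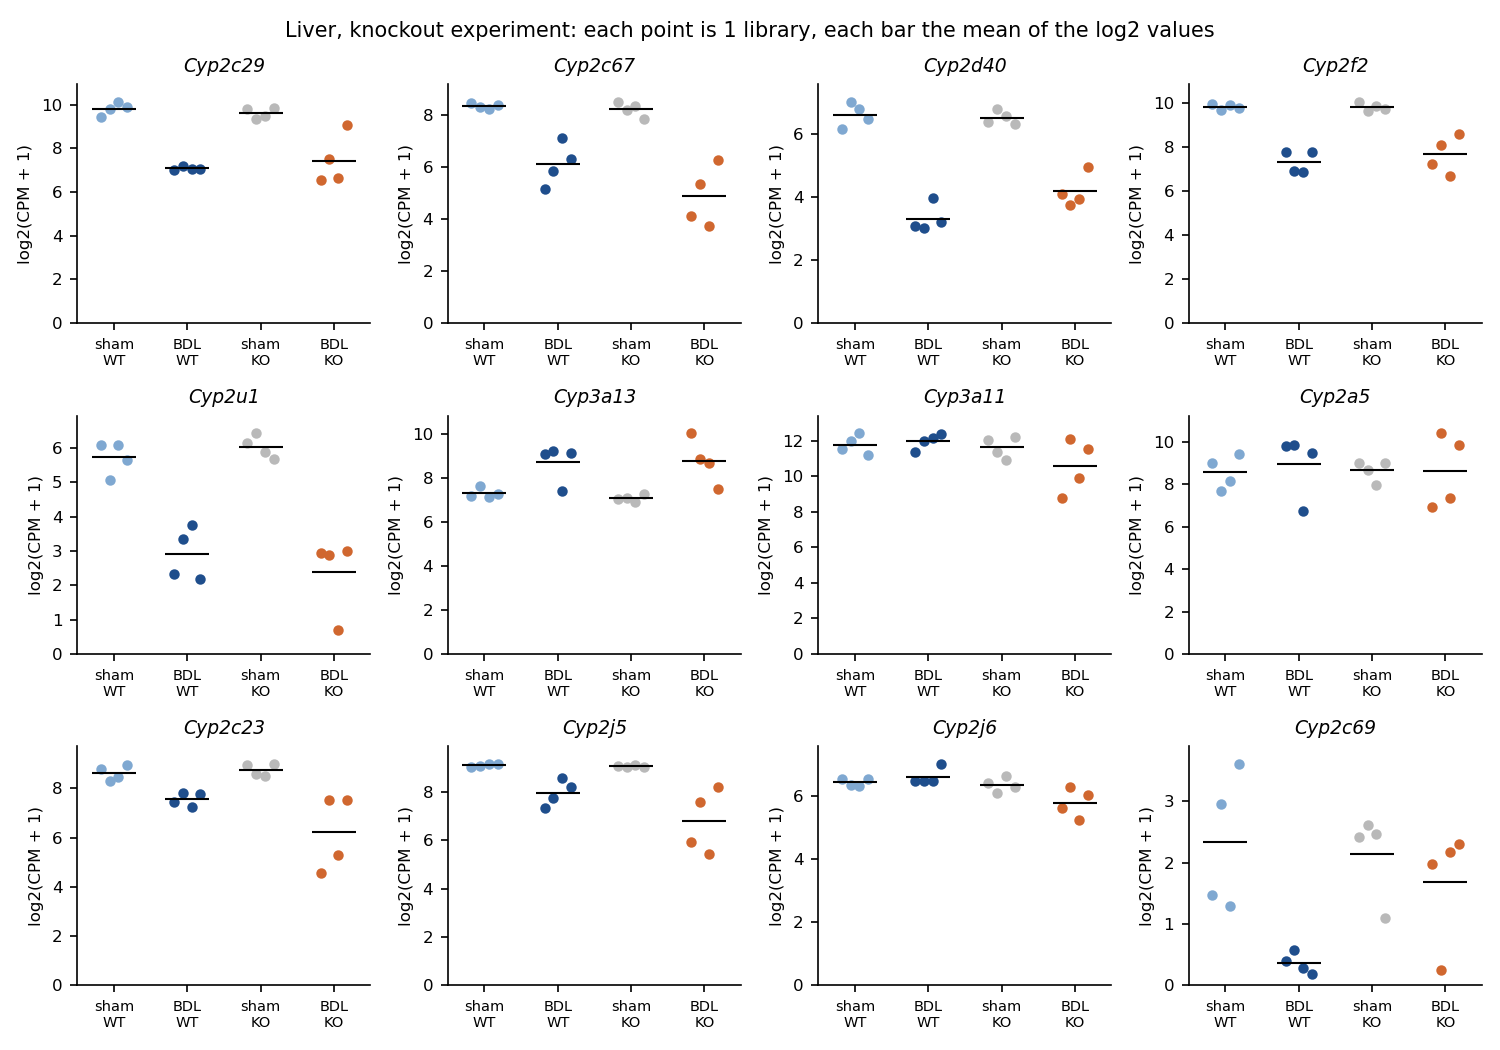
Levels of 12 P450 genes in the knockout experiment as log2(CPM + 1), one point per liver and a bar at the mean of the 4 livers of each group, in the order sham WT, BDL WT, sham KO, BDL KO. Cyp2c29, Cyp2d40, Cyp2f2 and Cyp2u1 lie lower after BDL in both genotypes, Cyp3a11 overlaps, and the BDL KO points of Cyp2c23, Cyp2j5 and Cyp3a11 split into libraries 1 and 3 below 2 and 4.

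The inhibitor experiment repeated the ligation in other mice, measured as FPKM (fragments scaled by transcript length and library size) and tested with limma on log2(FPKM + 1), a scale that understates the change of low genes. With DMSO, 12 of 36 tested members fell and 0 rose, 33.3% against 7.92% of all 12986 genes lower and 5.47% higher (710 higher and 1028 lower, or 929 and 789 with median-of-ratios scaling). The medians were -0.75 for members and -0.10 for all genes. Cyp2c29, Cyp2c54, Cyp2c55, Cyp2c67, Cyp2d10, Cyp2d12, Cyp2d40, Cyp2f2, Cyp2j5, Cyp2u1, Cyp3a16 and Cyp3a44 fell. The rises of Cyp3a13 and Cyp2c39 seen in the WT count libraries were not found: their log2 changes here were 0.18 ± 0.38 and -0.72 ± 0.38 (limma adjusted p = 0.796 and 0.221). Members not tested were Cyp2b13, Cyp2b19, Cyp2s1 and Cyp3a41a, all under 1 FPKM in every liver.

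Cyp2d40 was at 36.8, 82.1 and 57.5 FPKM in the sham DMSO livers and from 4.09 to 8.98 (median 5.49) FPKM in the 6 ligated ones (log2 fold change -3.01 ± 0.31, limma adjusted p = 1.76e-05). Cyp2c29 went from 670.4, 581 and 946 FPKM to values from 43.02 to 269.7 (median 113) FPKM (log2 fold change -2.78 ± 0.45, limma adjusted p = 0.000906). Neither gene's groups overlap. Cyp2c67 moved from 66.3, 122 and 284 to between 17.6 and 47.2 (median 21.5) FPKM (log2 fold change -2.39 ± 0.42, limma adjusted p = 0.00155). Cyp2u1 moved from 6.55, 11.1 and 6.98 to between 0.623 and 2.24 (median 1.23) FPKM (log2 fold change -2.04 ± 0.32, limma adjusted p = 0.000766). Cyp2j5, of which the WT count comparison gave no call, was at 267, 243 and 346 FPKM in sham and from 59.7 to 149 (median 84.3) FPKM in ligated livers (log2 fold change -1.64 ± 0.28, limma adjusted p = 0.00118). In these 3 genes, too, all ligated livers lay below all sham livers. These 5 calls held in every omission and setting.

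The other 7 calls of the DMSO arm were lost in at least one omission, mostly of a sham liver. Cyp2f2 was at 270.3, 496 and 441 FPKM in sham and from 69.7 to 273 (median 141) FPKM in ligated livers, which overlap at 1 library (log2 fold change -1.52 ± 0.39, limma adjusted p = 0.0177). Without sham DMSO 2 or 3 its adjusted p was 0.0952 or 0.0827. Cyp2d10 (221, 271 and 275 FPKM in sham, from 98.2 to 192 (median 139.96) in ligated livers) lost its call without the same 2 libraries (adjusted p 0.0631 and 0.0648), as did Cyp2d12 (0.109 and 0.0658). Cyp3a44 was at 11.8, 9.50 and 12.3 FPKM in sham and from 3.67 to 8.05 (median 4.86) FPKM in ligated livers (log2 fold change -0.99 ± 0.25, limma adjusted p = 0.0173), and lost its call without sham DMSO 1 or 3 (0.0568 and 0.0823). Its neighbour Cyp3a11 was at 2184, 1351 and 3014 FPKM in sham and from 760.2 to 2614 (median 1151) FPKM in ligated livers (log2 fold change -0.76 ± 0.34, limma adjusted p = 0.154). Cyp2c54, Cyp2c55 and Cyp3a16 were lost in 5, 6 and 8 of 16 omissions, among them sham DMSO 1 and sham DMSO 3 for each. The 2a, 2b and 2r genes gave no call with DMSO. Cyp2a4 was at 1.86, 10.5 and 8.40 FPKM in sham and from 4.92 to 54.9 (median 31.97) FPKM in ligated livers (log2 fold change 1.82 ± 0.62, limma adjusted p = 0.0607), and Cyp2a5 at 89.7, 214 and 161 and from 112 to 985 (median 509) FPKM (log2 fold change 1.4997 ± 0.81, limma adjusted p = 0.236). Cyp2r1 was at 21.4, 21.9 and 43.4 and from 7.79 to 33.04 (median 13.0) FPKM, Cyp2b10 at 10.7, 0.331 and 0.699 and from 0 to 3.76 (median 1.70) FPKM and Cyp2b9 at 2.74, 0.154 and 8.03 and from 0 to 3.90 (median 1.24) FPKM. The groups of all 5 overlap.

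With UNC569, 10 of 36 members fell and Cyp2a4 rose (limma), 27.8% and 2.78%, against 4.90% and 3.66% of all genes. Cyp2d40 was at 57.6, 60.1 and 69.4 FPKM in sham and 4.19, 7.30, 13.47 and 6.06 FPKM in ligated livers (log2 fold change -2.95 ± 0.33, limma adjusted p = 4.70e-05). Cyp2c67 was at 119, 74.9 and 249 and 16.96, 15.4, 12.4 and 21.3 FPKM (log2 fold change -2.93 ± 0.45, limma adjusted p = 0.000817), and Cyp2j5 at 229.9, 237 and 336 and 55.0, 63.3, 91.7 and 80.9 FPKM (log2 fold change -1.87 ± 0.30, limma adjusted p = 0.00113). All 3 separated the groups fully. Cyp2c23 fell in this arm from 203, 136 and 261 to 23.4, 30.6, 109 and 35.5 FPKM, library 3 standing above the other 3 (log2 fold change -2.21 ± 0.40, limma adjusted p = 0.00273). Cyp2a4 rose from 5.91, 5.73 and 15.3 to 49.0, 30.8, 40.9 and 49.3 FPKM (log2 fold change 2.23 ± 0.66, limma adjusted p = 0.0462), a call lost in 9 of 16 omissions. Its near copy Cyp2a5 was at 126, 124 and 291 and 1092, 939, 70.0 and 1294 FPKM, with library 3 again apart (log2 fold change 1.73 ± 0.87, limma adjusted p = 0.247). Cyp2c23, Cyp2c67, Cyp2d40, Cyp2j5 and Cyp2u1 were called in every omission and setting. Cyp2c55 and Cyp2d12, which fell as well, were lost in 4 and 5 of 16 omissions (adjusted p up to 0.112 and 0.207).

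After ligation, UNC569 and DMSO livers differed in 0 of 36 members (limma; 0.123% of all genes higher and 0.193% lower), with 3 members at an unadjusted p under 0.05. The smallest adjusted p was that of Cyp2c23: from 73.1 to 98.3 (median 86.3) FPKM with DMSO and the values above with UNC569 (log2 difference -1.04 ± 0.34, adjusted p = 0.245, 95% interval -1.70 to -0.37). 3 of its UNC569 livers lay below all DMSO livers and the other above them. Cyp2j6 was at 8.69, 10.1, 10.5 and 9.25 FPKM with UNC569 and from 10.2 to 22.3 (median 14.1) FPKM with DMSO, which overlap (-0.52 ± 0.21, limma adjusted p = 0.349). Cyp3a13 was at 114, 156, 87.9 and 201 FPKM with UNC569 and from 33.6 to 153 (median 74.8) FPKM with DMSO (0.87 ± 0.35, limma adjusted p = 0.364), and Cyp3a11 at 1573, 2075, 1347 and 2761 FPKM with UNC569 (0.61 ± 0.31, limma adjusted p = 0.483). In sham livers, and for the difference of the 2 responses, 0 of 36 members passed (0% of all genes); 0 and 1 of them, and 241 and 610 of 12986 genes, had an unadjusted p under 0.05.

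**Figure D4:**
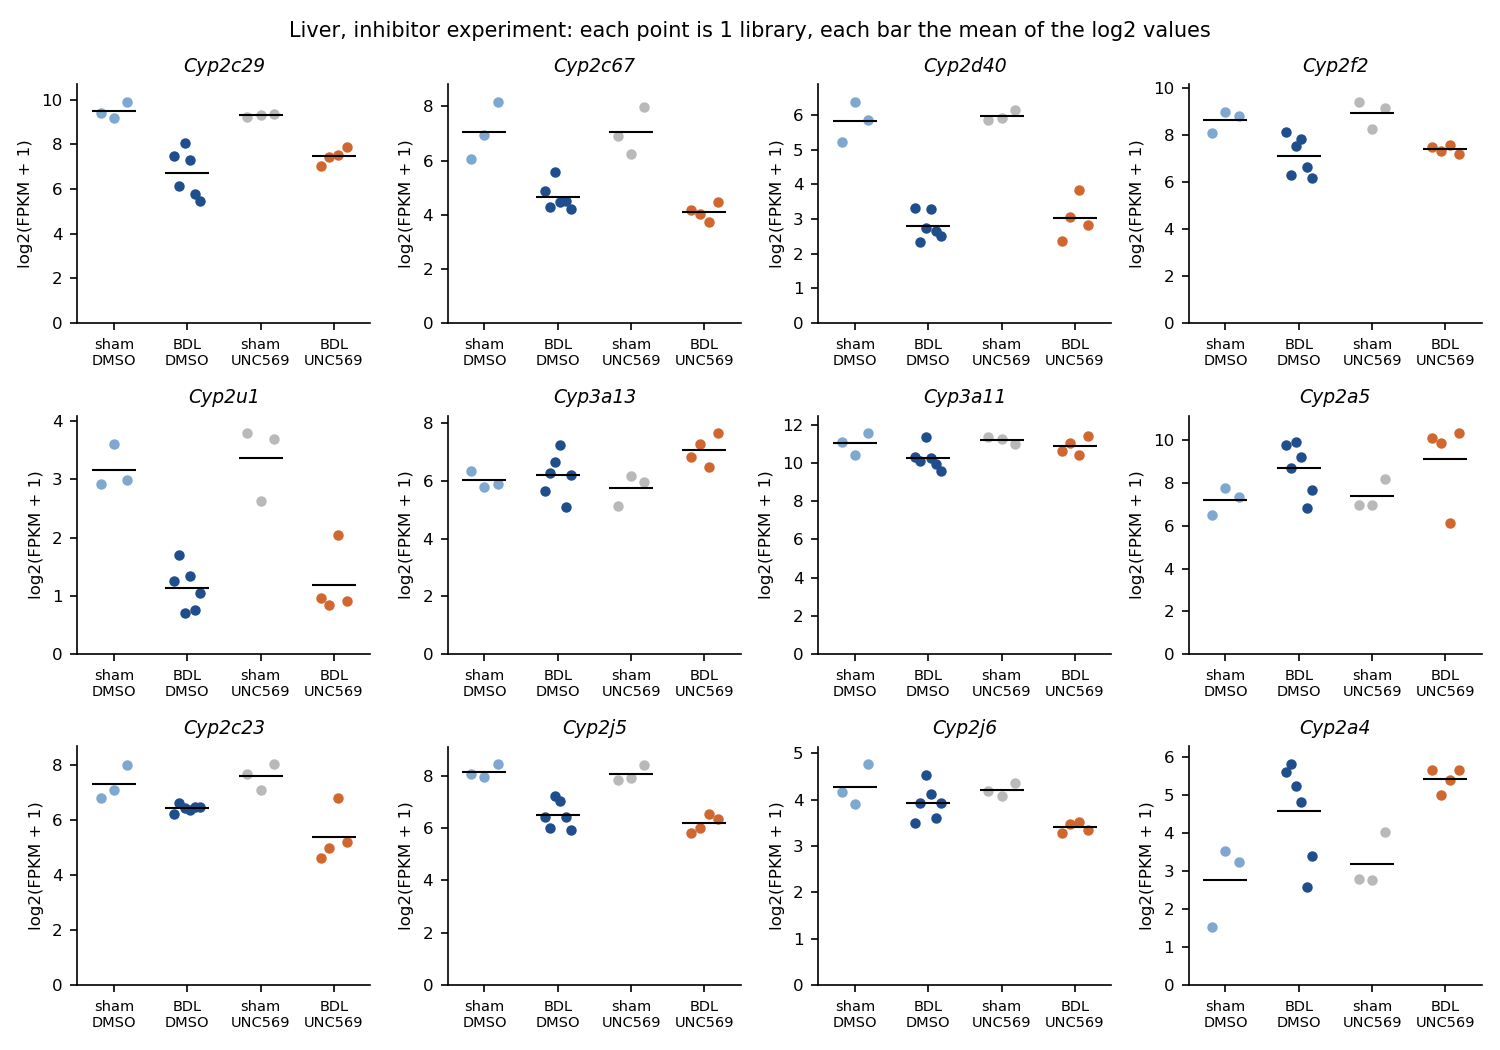
Levels of 12 P450 genes in livers of the inhibitor experiment as log2(FPKM + 1), one point per liver and a bar at the group mean, in the order sham DMSO, BDL DMSO, sham UNC569, BDL UNC569. Cyp2d40, Cyp2c29, Cyp2c67, Cyp2j5 and Cyp2u1 lie lower after BDL under both injections, and no gene shown differs between UNC569 and DMSO by the test.

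Across the 4 liver arms, which use separate libraries, 6 members fell in every one: Cyp2c29, Cyp2c67, Cyp2d10, Cyp2d40, Cyp2f2 and Cyp2u1. Of all genes tested, 12.8% fell in WT, 11.2% in KO, 7.92% with DMSO and 4.90% with UNC569. The share of all genes that fell in all 4 arms was not counted. In each arm the calls on Cyp2c67, Cyp2d40 and Cyp2u1 held in every omission and setting. Those on Cyp2d10 and Cyp2f2 were lost in some omissions with DMSO, as given above, and Cyp2c29 in 2 settings in KO. With UNC569, Cyp2d10 was lost without sham UNC569 1 or 3 (adjusted p 0.0643 and 0.0761). Cyp2c29 was lost there without any one of sham UNC569 1 to 3, BDL UNC569 1 or BDL UNC569 2 (adjusted p up to 0.0947), and Cyp2f2 without sham UNC569 1, sham UNC569 3 or BDL UNC569 1, 2 or 4 (up to 0.148). Cyp2c29 and Cyp2f2 were also lost there with no filter on low values. By subfamily sum, 2c transcripts and the sum of Cyp2f2 and Cyp2g1 fell in all 4 arms, while 2d and the sum of Cyp2r1, Cyp2s1 and Cyp2u1 fell in WT, KO and DMSO, and 2j in KO, DMSO and UNC569. The 2d fall in KO had a log2 change of -0.73 ± 0.25 (-0.42, edgeR adjusted p = 0.304 without BDL KO 1 and BDL KO 3). With the sham KO and BDL KO libraries alone, the 2c and 2d sums were not called in KO (adjusted p 0.0638 and 0.0858). The 3a sum passed in none: its log2 changes were 0.18 ± 0.39 in WT, -0.43 ± 0.39 in KO, -0.67 ± 0.34 with DMSO and -0.21 ± 0.37 with UNC569. The same holds for the 2a and 2b sums.

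Other genes of the pathway were read from fixed lists. Of the family 2 and 3 genes outside the set, Cyp2d9, a male-predominant testosterone hydroxylase, fell in all 4 liver arms (in WT from 2014 ± 198 to 632 ± 138 CPM, SD, n = 4), as did Cyp2e1. Cyp2c70 of the same list had higher means after BDL, 496 ± 137 CPM in sham and 809 ± 255 CPM in ligated WT livers. In KO livers these were 456 ± 219 and 650 ± 210 CPM. Counts over the 19 genes of this list are not given here. In family 1, Cyp1a2, which oxidises caffeine, fell in all 4 arms (log2 fold change -3.06 ± 0.73, edgeR adjusted p = 0.00591 in WT), and Cyp1b1 rose in WT and KO. Por, the electron donor of all these enzymes, rose in all 4 arms, in WT from 273 ± 109 to 756 ± 460.2 CPM (log2 fold change 1.47 ± 0.53, edgeR adjusted p = 0.0488), while Cyb5b fell in all 4. Of 18 regulators, 2 rose and 6 fell in WT (Cebpa, Foxa2, Onecut1, Ppara and Stat5b among those lower, Ahr and Cux2 higher), 1 rose and 5 fell in KO, 1 and 4 with DMSO, 2 and 2 with UNC569. The shares of all genes that rose and fell were 16.3% and 12.8% in WT, 14.0% and 11.2% in KO, 5.47% and 7.92% with DMSO and 3.66% and 4.90% with UNC569. Cux2, a female-predominant repressor of male-biased liver genes, was at 0.517 ± 0.267 CPM in sham and 28.999 ± 22.3 CPM in ligated WT livers (log2 fold change 5.77 ± 0.97, edgeR adjusted p = 0.000691) and rose in all 4 arms. After ligation it was higher with UNC569 than with DMSO (22.9 ± 3.18 against 5.92 ± 2.89 FPKM, log2 fold change 2.01 ± 0.41, limma adjusted p = 0.0483). Of 28 conjugating enzymes and transporters, 7 rose and 6 fell in WT, against the same 16.3% and 12.8% of all genes; Abcb1a, Gstm3 and Sult1a1 rose and Ces2a, Sult2a8, Ugt2a3 and Ugt2b1 fell in all 4 arms. Of the 16 hepatocyte markers, 0 rose and 1 fell (Ttr) in WT.

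In kidney 23 members of the knockout experiment and 27 of the inhibitor experiment, and in lung 30, were too low to test. Ureteral obstruction lowered the kidney's leading members. Of the 17 members tested in the knockout experiment, 7 fell and 3 rose in WT (edgeR), 41.2% and 17.6%, against 16.0% and 23.4% of 16394 genes. In KO 9 fell and 2 rose, 52.9% and 11.8%, against 24.4% and 34.7%. In the inhibitor experiment, 8 of 13 fell and 1 rose with DMSO (limma), 61.5% and 7.69%, against 25.8% and 29.7% of 15338 genes. With UNC569 10 fell and 2 rose, 76.9% and 15.4%, against 34.5% and 27.5% (4224 genes higher and 5294 lower, or 5028 and 4512 with median-of-ratios scaling). Cyp2j5, Cyp2a4, Cyp2c23, Cyp2d12 and Cyp2j9 fell in all 4 arms. The share of all genes that fell in all 4 was not counted. All 10 proximal tubule markers fell in all 4 arms too, their sum being 24305 to 54648 CPM in sham WT and 2223 to 4185 CPM in UUO WT kidneys. Its part in the P450 values was not tested.

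Cyp2j5 (chr4:96628773-96664154, minus strand, GRCm38) was at 2121, 1809 and 1947 CPM in sham WT kidneys 2 to 4 and 365, 328 and 269 CPM in obstructed ones (log2 fold change -2.61 ± 0.29, edgeR adjusted p = 1.98e-05, 6.11-fold lower). In KO kidneys it was at 1938, 1877, 1685 and 1963 and 481, 268, 209 and 270.1 CPM (log2 fold change -2.60 ± 0.25, edgeR adjusted p = 2.22e-06). No obstructed kidney reached a sham kidney. The inhibitor experiment gave 489, 359 and 392 FPKM in sham and 75.8, 63.3, 39.02 and 66.7 FPKM in obstructed kidneys with DMSO (log2 fold change -2.76 ± 0.26, limma adjusted p = 1.42e-07). It gave 578, 518 and 522 against 46.6 to 122 (median 68.1) FPKM with UNC569 (log2 fold change -2.99 ± 0.24, limma adjusted p = 9.18e-09). UUO UNC569 6 was the highest obstructed kidney. The other 2 members of subfamily 2j in the set had smaller changes. Cyp2j11 and Cyp2j13, outside the set, are given further below. Cyp2j9 fell by 0.99 in WT and by 0.79 in KO on the log2 scale, with edgeR adjusted p of 0.0490 and 0.0471. Its WT call was lost without sham WT 2, UUO WT 2, UUO WT 4, sham KO 2, UUO KO 2 or UUO KO 3 (adjusted p 0.0514 to 0.178), and its KO call without sham KO 3, UUO WT 4 or UUO KO 1, 2 or 3 (0.0558 to 0.121). With the replicate number as a block, neither passed. Cyp2j6 was called only with UNC569 (log2 fold change -0.52 ± 0.14, limma adjusted p = 0.00369).

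Cyp2a4 varied widely between sham kidneys: 388, 31.4 and 481 CPM in sham WT and 182, 143, 188 and 714 CPM in sham KO kidneys, against 11.03, 29.7 and 7.93 and 40.4, 3.52, 4.46 and 19.6 CPM after obstruction (log2 fold change -4.21 ± 1.11, edgeR adjusted p = 0.00801 in WT). Sham WT 3, the kidney with 58.49% unmapped reads, lay close to the obstructed kidneys and sham KO 4 above all others. What part the quality of that library has in its values was not tested. With DMSO it went from 168, 267 and 213 to 17.6, 23.8, 0.420 and 1.05 FPKM (log2 fold change -5.14 ± 0.78, limma adjusted p = 2.50e-05). Cyp2a5 was at 96.1, 41.03 and 74.3 CPM in sham WT and 5.37, 39.5 and 1.55 CPM in UUO WT kidneys and passed in KO and in both inhibitor arms but not in WT (log2 fold change -2.19 ± 1.12, edgeR adjusted p = 0.134). Cyp2d12 fell to near 0: from 126, 68.1 and 139 to 1.58, 3.46 and 0.249 CPM in WT (log2 fold change -5.99 ± 1.28, edgeR adjusted p = 0.00222) and from 30.7, 28.8 and 38.1 to 0.226, 0.385, 0 and 0 FPKM with DMSO (log2 fold change -4.87 ± 0.18, limma adjusted p = 5.12e-12). Cyp2d26 was at 338, 408, 414 and 132 CPM in sham KO and 39.9, 1.92, 1.33 and 2.31 CPM in UUO KO kidneys (log2 fold change -4.83 ± 1.07, edgeR adjusted p = 0.00152; -7.43 without UUO KO 1, the high one), and its WT call was missed (log2 fold change -2.76 ± 1.13, edgeR adjusted p = 0.0660). Without UUO KO 1, the KO log2 changes of Cyp2a5, Cyp2d12 and Cyp2c69 were likewise larger, at -5.97, -8.80 and -8.03 in place of -3.83, -5.82 and -4.78.

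Cyp2c23, the kidney epoxygenase that makes vasoactive lipids, fell from 32.2, 12.4 and 30.9 to 3.94, 5.73 and 3.39 CPM in WT (log2 fold change -2.54 ± 0.51, edgeR adjusted p = 0.00151). It fell from 32.1, 37.2, 27.3 and 29.2 to 9.88, 2.93, 1.93 and 4.09 CPM in KO (log2 fold change -2.74 ± 0.44, edgeR adjusted p = 0.000130) and from 14.3, 17.8 and 13.4 to 2.16, 2.26, 0.339 and 1.28 FPKM with DMSO (log2 fold change -2.76 ± 0.33, limma adjusted p = 1.50e-06). The groups did not overlap in any arm. Cyp3a11 and Cyp2c69 also fell in WT, at low levels: Cyp3a11 was at 9.84, 0 and 3.54 CPM in sham and 0, 0.325 and 0.0499 CPM in obstructed kidneys, a call lost without sham WT 2, UUO WT 2 or UUO WT 4 (edgeR adjusted p 0.108, 0.0979 and 0.101). Cyp2c69 was lost without sham WT 2, sham WT 4 or any one of UUO WT 2 to 4 (adjusted p up to 0.128). Sham WT 2, the kidney with the most Cyp3a11, also held the most Alb of these kidneys, 116 CPM.

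In obstructed WT kidney, 3 members rose. Cyp2s1 was at 19.04, 16.3 and 22.98 CPM in sham WT and 35.5, 51.4 and 39.4 CPM in UUO WT kidneys (log2 fold change 1.11 ± 0.23, edgeR adjusted p = 0.00172), and at 9.54, 11.5 and 8.68 and 21.01, 22.9, 22.003 and 20.8 FPKM with DMSO (log2 fold change 1.06 ± 0.16, limma adjusted p = 2.62e-05). In KO, with 20.1, 25.7, 33.5 and 20.7 and 29.3, 31.98, 25.1 and 31.3 CPM, it did not pass (log2 fold change 0.24 ± 0.19, edgeR adjusted p = 0.312). Cyp2d22, the closest mouse relative of CYP2D6, was at 23.3, 26.4 and 33.5 and 54.5, 97.4 and 63.9 CPM in WT (log2 fold change 1.37 ± 0.22, edgeR adjusted p = 0.000253). It was at 30.95, 37.2, 31.7 and 27.2 and 49.3, 47.02, 53.3 and 47.8 CPM in KO (log2 fold change 0.64 ± 0.18, edgeR adjusted p = 0.00847), a call lost without sham KO 1, 3 or 4 (adjusted p 0.0625, 0.0601 and 0.0826) or with no filter on low counts. Cyp3a13 went from 1.04, 0 and 0.577 to 2.61, 2.54 and 2.99 CPM in WT (log2 fold change 2.19 ± 0.68, edgeR adjusted p = 0.0193) and rose in KO. Its WT call was lost without sham WT 4 or UUO WT 4 (adjusted p 0.0506 and 0.0522) and with the 2 groups alone (0.115). With sham WT 1 and UUO WT 1 put back, these 3 rises ended: Cyp2d22 and Cyp3a13 had log2 changes of -0.70 and -5.98. Those 2 libraries stood far from their groups. The CPM in the rest of this paragraph were scaled with both put back, so they differ from the CPM printed above for the same kidneys. Sham WT 1 held 392 CPM of Cyp2d22, 518 of Cyp3a13, 0.262 of Cyp2s1 and 21571 of Cyp3a11. Sham WT 2 to 4 held at most 34.1 CPM of Cyp2d22, 1.06 of Cyp3a13 and 10.1 of Cyp3a11, and at least 15.1 of Cyp2s1. UUO WT 1 held 0.655 CPM of Cyp2j5, against 245 to 337 CPM in UUO WT 2 to 4.

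KO and WT kidneys differed in 0 of 17 members after UUO, after sham and in the response (edgeR; 0% of all genes in each, except 0.00610% higher after sham), with 2, 1 and 2 members and 1902, 2574 and 4464 genes at an unadjusted p under 0.05. Cyp2s1 and Cyp2d22 had the smallest adjusted p of the response, with differences of -0.88 ± 0.30 (0.106) and -0.74 ± 0.28 (0.124). UNC569 and DMSO kidneys differed in 0 of 13 members after UUO (limma; 0.248% of all genes higher, 1.05% lower; 2 members and 2829 genes at an unadjusted p under 0.05). In sham kidneys, Cyp2s1 was higher with UNC569 and Cyp2d12 and Cyp2d22 were lower, 1 and 2 of 13, against 13.3% and 6.05% of all genes (2033 higher and 928 lower, or 1194 and 1657 with median-of-ratios scaling, under which Cyp2s1 was not called). Sham Cyp2d22 was at 9.43, 5.53 and 6.30 FPKM with UNC569 and 10.8, 15.4 and 12.1 FPKM with DMSO (log2 fold change -0.78 ± 0.19, limma adjusted p = 0.00944), a call lost without sham DMSO 2 (adjusted p 0.0539). Sham Cyp2s1 was at 17.4, 14.5 and 15.4 and 9.54, 11.5 and 8.68 FPKM (log2 fold change 0.63 ± 0.17, limma adjusted p = 0.0187), lost without sham DMSO 3 or sham UNC569 1 (0.0806 and 0.0601). Sham Cyp2d12 was at 21.8, 17.7 and 19.2 and 30.7, 28.8 and 38.1 FPKM (log2 fold change -0.70 ± 0.19, limma adjusted p = 0.0170), lost without sham DMSO 3, sham UNC569 2 or sham UNC569 3 (0.0861, 0.0631 and 0.0539).

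The response to obstruction differed between UNC569 and DMSO for 2 of 13 members, Cyp2d22 and Cyp2d12, both higher, against 6.17% of all genes higher and 13.4% lower (947 and 2053, or 1615 and 1324 with median-of-ratios scaling). Cyp2d22 was at 12.6 to 19.6 (median 15.2) FPKM in obstructed kidneys with UNC569 and 11.1, 14.0, 14.2 and 14.7 FPKM with DMSO, which overlap (log2 difference 0.21 ± 0.15, against -0.78 ± 0.19 in the sham kidneys given above). The difference of the responses was 1.00 ± 0.24 (limma adjusted p = 0.00949). It held in every omission. Cyp2d12 was close to 0 after obstruction in both arms (0.72 ± 0.24, limma adjusted p = 0.0428), and its call was lost in 11 omissions, with adjusted p up to 0.125. The sum of 3a genes differed in the same way (2.16 ± 0.62, limma adjusted p = 0.0219), and sham DMSO 1 and sham DMSO 3, which carried 8.21 and 5.94 FPKM of Cyp3a11, also carried 56.6 and 56.2 FPKM of Alb, the liver's albumin, against 1.57 FPKM in sham DMSO 2. What part liver RNA has in this value was not tested.

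Several pathway genes outside the set also fell with obstruction. Cyp2e1, Cyp2d9, Cyp2j11 and Cyp2j13 fell in all 4 kidney arms, Cyp2j11 in WT from 256 ± 76.9 to 26.8 ± 5.20 CPM (SD, n = 3; log2 fold change -3.26 ± 0.48, edgeR adjusted p = 0.000149). Of 5 electron donors and partners, Por, Cyb5a, Cyb5b and Pgrmc1 fell in all 4 arms; Por went from 361 ± 220.2 to 124 ± 19.8 CPM in WT. Of the 15 regulators tested, 1 rose and 6 fell in WT, 2 and 7 in KO, 2 and 7 with DMSO, and 2 and 10 with UNC569. The shares of all genes that rose and fell were 23.4% and 16.0% in WT, 34.7% and 24.4% in KO, 29.7% and 25.8% with DMSO and 27.5% and 34.5% with UNC569. Hnf4a and Ppara were among those that fell in all 4, and Ahr rose in all 4. Hnf4a was at 640.4 ± 157 CPM in sham and 197 ± 42.4 CPM in obstructed WT kidneys.

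In lung, 10 members were tested and none passed after bleomycin with DMSO (limma; 0.0251% of all 15935 genes higher and 0.0439% lower), with 5 members and 3122 genes at an unadjusted p under 0.05. Cyp2f2 was at 2582, 2517 and 806 FPKM in sham lungs and from 358 to 1177 (median 931) FPKM after bleomycin (log2 fold change -1.25 ± 0.47, limma adjusted p = 0.165), and Cyp2s1 at 171, 166 and 60.8 and 33.8 to 113 (median 77.7) FPKM (log2 fold change -0.73 ± 0.37, limma adjusted p = 0.292). Sham DMSO 3 lay among the bleomycin lungs for both. Cyp2a5 was at 212, 209.6 and 2.07 FPKM in sham and from 1.41 to 9.20 (median 4.14) FPKM in bleomycin lungs (log2 fold change -3.40 ± 1.26, limma adjusted p = 0.162), and Cyp2a4 had a log2 change of -2.20 ± 0.62 (limma adjusted p = 0.1002). Sham DMSO 1 and 2 gave close values for all 3 genes, and nothing in the labels says whether they are separate animals. Averaged into 1 library, they left Cyp2f2 at -0.98 (adjusted p 0.582) and Cyp2a5 at -2.38 (0.598). Without sham DMSO 3, Cyp2a4, Cyp2a5, Cyp2f2 and Cyp2s1 all passed as lower (adjusted p 0.00492, 0.00867, 0.0254 and 0.0446); the sham arm then held only sham DMSO 1 and 2, so these calls may rest on 1 animal. Cyp2b10 was at 84.7, 77.5 and 68.6 and 36.6 to 66.9 (median 55.7) FPKM; the groups did not overlap and the test was not passed (log2 fold change -0.54 ± 0.20, limma adjusted p = 0.155). Cyp2d22 and Cyp3a13 did not pass either (-0.52 ± 0.32 and -0.59 ± 0.20). The groups of Cyp3a13 and Cyp2r1, both low in lung, did not overlap either, those of Cyp3a13 barely, and Cyp2r1 did not pass (log2 fold change -0.41 ± 0.22, limma adjusted p = 0.302): Cyp3a13 was at 1.14, 2.23 and 0.994 FPKM in sham and from 0.388 to 0.991 (median 0.565) FPKM in bleomycin lungs, and Cyp2r1 at 1.73, 1.12 and 1.11 and from 0.570 to 0.971 (median 0.687) FPKM.

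Heart and fat transcripts were high in the sham lungs with high Cyp2a5. Cyp2a5 was high in sham DMSO 1, sham DMSO 2 and sham UNC569 2 (212, 209.6 and 156 FPKM), the lungs that also held 312, 328 and 386 FPKM of cardiac Myh6 and 87.1, 98.3 and 387 FPKM of adipocyte Adipoq. The other 3 sham lungs held 2.07 to 11.98 FPKM of Cyp2a5 and at most 10.3 FPKM of Myh6. Cyp2f2 and Cyp2s1 were also highest in sham DMSO 1 and 2 among the sham lungs, but not in sham UNC569 2. That lung held 972 and 75.9 FPKM of them, against 1363 and 92.9 FPKM in sham UNC569 1, which held 2.19 FPKM of Myh6. With Myh6 as a covariate, the log2 change of Cyp2a5 with DMSO was -1.47 and that of Cyp2f2 -0.95, neither passing (adjusted p 0.474 and 0.450). Summed club cell markers were 57845 to 131048 FPKM in sham DMSO lungs, lowest in sham DMSO 3, and 25619 to 77953 FPKM after bleomycin. Their part in the Cyp2f2 values was not tested.

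With UNC569, 0 of 10 lung members passed after bleomycin (limma; 0.0188% of all genes higher and 0.00628% lower; 1 member and 1687 genes at an unadjusted p under 0.05). UNC569 and DMSO lungs differed in 0 members after bleomycin, after sham and in the response (0% of all genes), with 0, 1 and 3 members and 843, 1206 and 1893 genes at an unadjusted p under 0.05. Cyp2f2 ranged from 603 to 2183 (median 1331) FPKM after bleomycin with UNC569, overlapping the DMSO lungs (0.75 ± 0.38, limma adjusted p = 0.867). Cyp3a13 was at 1.16, 1.52 and 1.39 FPKM in sham and from 0.334 to 1.102 (median 0.687) FPKM in bleomycin lungs with UNC569, again without overlap (log2 fold change -0.49 ± 0.20, limma adjusted p = 0.424). Cyp2a4, Cyp2f2, Cyp2s1 and Cyp2b10 had the smallest p of the response, with differences of 2.20 ± 0.87, 1.53 ± 0.66, 1.16 ± 0.53 and 0.54 ± 0.28.

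**Figure D5:**
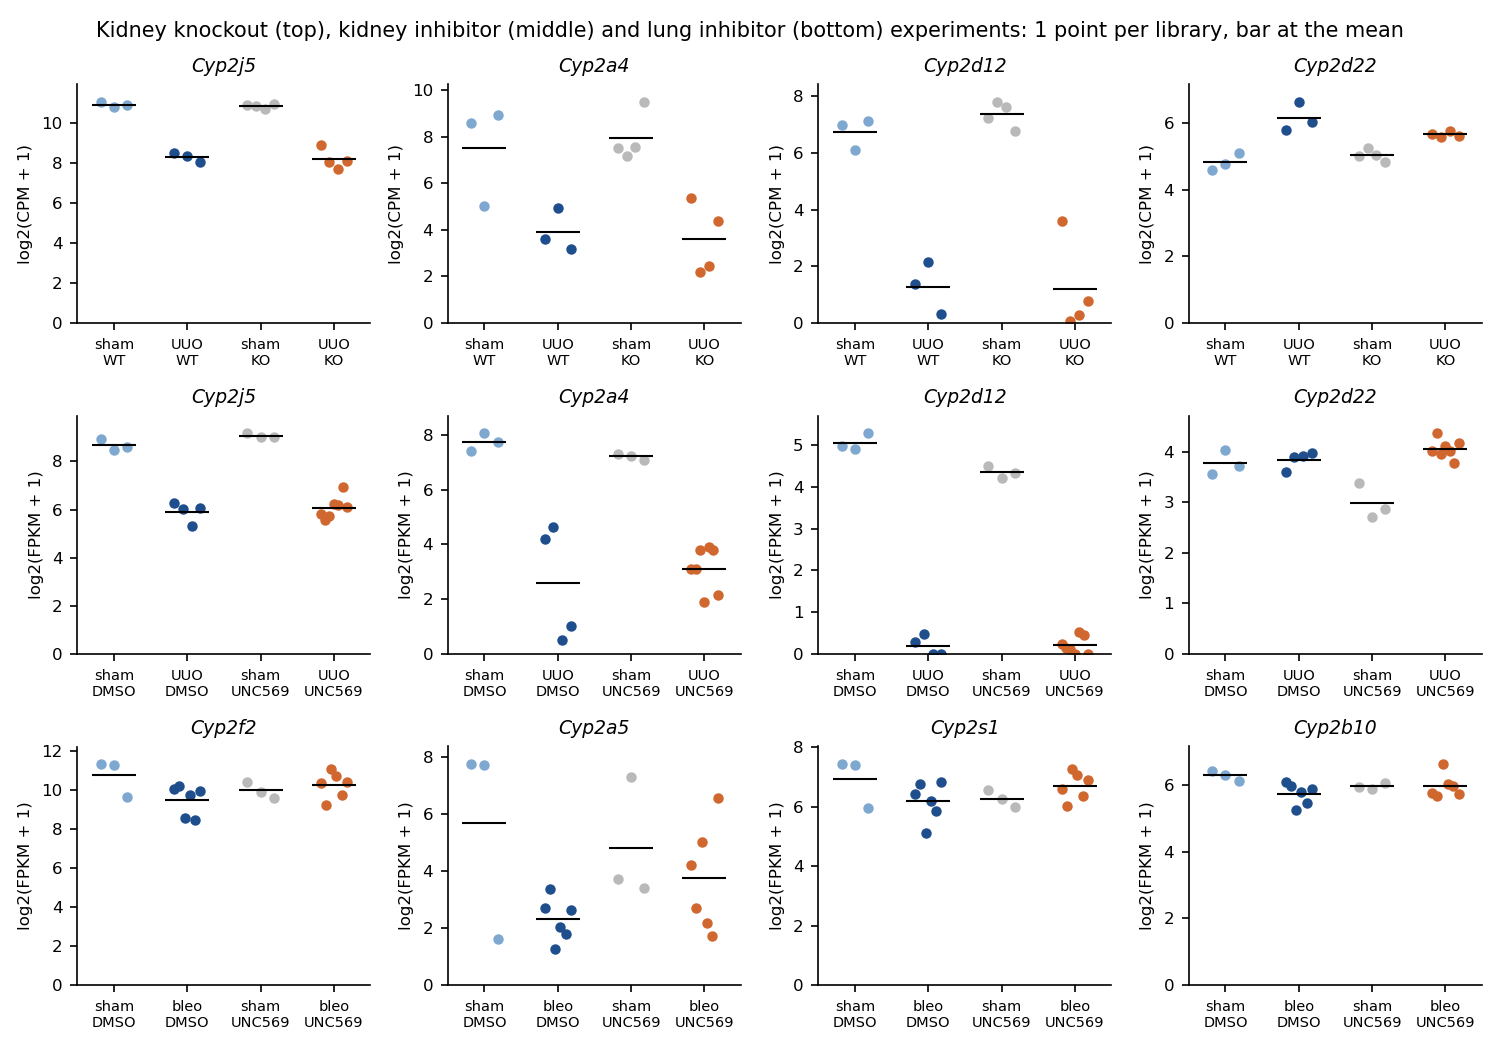
P450 levels by group in kidney (knockout experiment as log2(CPM + 1) in the top row, inhibitor experiment as log2(FPKM + 1) in the middle row) and lung (log2(FPKM + 1), bottom row); points are libraries and bars group means, in the order sham control, injured control, sham KO or UNC569, injured KO or UNC569. Cyp2j5, Cyp2a4 and Cyp2d12 lie lower in obstructed kidneys, Cyp2d22 does not, and of the 4 lung genes shown, sham and bleomycin groups overlap except for Cyp2b10 with DMSO.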

How the data were processed

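RNA-seq was read from gene counts (liver and kidney, knockout experiment) and FPKM tables (inhibitor experiment). Per the labels, libraries came from a TruSeq kit without strand marking; the submitters' processing notes name FastQC, Trim Galore, STAR and edgeR, and the builds mm10 and hg38, with no versions. The deposited counts are reads per gene, of which the unstranded column was used. FPKM values were deposited as made by the authors; how FPKM was computed is not given in the sources used here. Counts were printed as CPM and tested with edgeR 4.0.16 (quasi-likelihood, TMM, filterByExpr) in R 4.3.3, with DESeq2 1.42.0 as an alternative; FPKM was tested with limma 3.58.1 on log2(FPKM + 1), for genes at 1 FPKM or more in at least 3 libraries. Each fit held the 4 groups of a tissue, and adjusted p (Benjamini-Hochberg over all genes tested) under 0.05 was called. Kidney sham WT 1 and UUO WT 1 were left out. Scripts were tested on simulated counts. Same-numbered libraries did not deviate together.

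Values in every library are given for the tested member of each subfamily with the smallest p and the one with the highest sham level in liver, the 4 smallest p of each KO, UNC569 and response comparison, and the 5 highest and 5 smallest p in kidney and lung. Other genes come from lists, at most 6 named per list except where a list is spelled out. Members and lists were chosen with earlier results of these data known. Alternatives were another tool or scaling, pseudocount 0.1, no filter, the compared groups alone, a replicate block and omission of libraries; averaging lung sham DMSO 1 and 2 and the Myh6 covariate were added after seeing the data. A gene of the regulator list enters its counts and is not reported here by itself.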

Additional observations from a re-analysis of the deposited data

Results flagged for a closer look

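Of 136 groups of 4 to 7 libraries checked for a single library standing apart, 21 held one. Chance alone flags about 1 in 20 independent groups. The groups here share libraries between members, so the 21 cannot be set against that share. In the livers of the knockout experiment these were Cyp2b10 in BDL WT 4 (9.42 CPM, highest), Cyp2d40 in BDL WT 3 (14.6, highest) and Cyp2d10 in sham WT 2 (900.03, lowest). They were also Cyp2u1 in BDL KO 3 (0.639, lowest), Cyp3a13 in BDL WT 3 (171, lowest), Cyp2j6 in BDL WT 4 (128, highest) and Cyp2b9 in BDL KO 4 (39.97, highest). In the inhibitor livers they were Cyp2b9 (2.59 FPKM), Cyp2u1 (3.14) and Cyp2c23 (109), each highest in BDL UNC569 3, and Cyp3a11 in BDL DMSO 3 (2614, highest). In the kidney count libraries, Cyp2a5 (27.6 CPM), Cyp2d26 (39.9) and Cyp2d12 (11.2) were each highest in UUO KO 1, and Cyp2a4 in sham KO 4 (714). In the inhibitor kidneys, Cyp2c23 (5.34 FPKM), Cyp2j5 (122) and Cyp2d26 (3.44) were each highest in UUO UNC569 6. In lung, Cyp2b10 was highest in bleo UNC569 3 (97.2 FPKM), Cyp2a5 highest in bleo UNC569 6 (93.8) and Cyp2d22 lowest in bleo UNC569 2 (5.76).

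The response of the kidney to obstruction differed between UNC569 and DMSO, by the limma interaction term, for Cyp2d22 (1.00 on the log2(FPKM + 1) scale), Cyp2d12 (0.72) and the sum of 3a genes (2.16). In the 2 kidney libraries left out of all comparisons, 33 members stood above every other kidney library in sham WT 1 and 4 did so in UUO WT 1.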

How the results depend on the processing

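Counts are of members called, higher then lower. Leaving out each library in turn gave, in liver, 1 to 3 and 10 to 12 for BDL in WT, 3 to 4 and 10 to 14 in KO. It gave 0 to 5 and 0 to 3 for KO against WT after BDL, 0 to 1 and 5 to 16 with DMSO, 0 to 2 and 5 to 11 with UNC569, and 0 lower to 1 lower for UNC569 against DMSO after BDL. In kidney it gave 2 to 3 and 4 to 9 for UUO in WT, 1 to 2 and 8 to 11 in KO, 0 to 2 lower for the response in KO minus WT. It gave 1 and 8 with DMSO, 2 and 9 to 11 with UNC569, 0 to 1 and 1 to 2 for UNC569 against DMSO in sham, and 1 to 2 higher for the response. In lung it gave 0 to 4 lower for bleomycin with DMSO, 0 to 1 lower for UNC569 against DMSO in sham and 0 to 1 higher for the response. Without libraries with bad sequence files, BDL in WT gave 1 higher and BDL in KO 7 lower. With only the 2 groups compared, BDL in KO gave 2 higher and 7 lower, and BDL with UNC569 2 higher. KO against WT after BDL gave 3 higher with DESeq2. It gave 0 higher and 0 lower with no filter, with the replicate block, with the 2 groups alone, without libraries with bad files, and without BDL KO 1 and BDL KO 3. Median-of-ratios scaling gave 1 higher for BDL with DMSO, 2 higher for BDL with UNC569 and 0 higher for UNC569 against DMSO in sham kidney. A pseudocount of 0.1 gave 0 higher for BDL with UNC569, 1 lower for UNC569 against DMSO in sham kidney and 1 higher for the kidney response. No filter gave 0 higher for BDL with UNC569, 1 higher for UUO in KO, 17 lower for UUO with DMSO and 9 lower for UNC569 against DMSO in sham kidney. For UUO in WT, DESeq2 gave 12 lower. With kidney sham WT 1 and UUO WT 1 put back, UUO in WT gave 0 higher and 14 lower, UUO in KO gave 0 higher. The WT log2 changes of Cyp3a13, Cyp2d22 and the sum of Cyp2r1, Cyp2s1 and Cyp2u1 turned to -5.98, -0.70 and -0.26. The cause of these changes was not tested. Replicate numbers were not paired: correlations of deviations between same-numbered libraries had a median of -0.0297 in kidney and -0.00323 in liver, and 1 of 14 kidney and 5 of 16 liver libraries correlated best with their own number. Another scaling moved the median log2 change of all genes from -0.105 to 0.0108 for BDL with DMSO, 0.16 to 0.0408 and 0.23 to 0.00203 for UUO in WT and KO (DESeq2). It moved it from -0.0736 to 0.0645 for UUO with UNC569, 0.0735 to -0.0582 for UNC569 against DMSO in sham kidney and -0.127 to 0.0357 for the kidney response. Depth limits low members: 3 counts correspond to 0.128 to 0.207 CPM in liver on library totals without the TMM factor, which the printed CPM include.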
